A study of Mus musculus with 4 samples.

Results

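The genes described here are 7 genes of extracellular matrix breakdown and 1 of their inhibitors: the matrix metalloproteinases Mmp12 (ENSMUSG00000049723), Mmp13 (ENSMUSG00000050578), Mmp8 (ENSMUSG00000005800), Mmp9 (ENSMUSG00000017737), Mmp14 (ENSMUSG00000000957) and Mmp19 (ENSMUSG00000025355), the membrane-bound protease Adam8 (ENSMUSG00000025473) and the inhibitor Timp2 (ENSMUSG00000017466). They were taken by symbol, 8 of the 26033 features in the deposited tables, and their counts were followed across cell types and between 2 Csf2 genotypes. Cells carrying the leukocyte marker CD45 were enriched on magnetic beads and then sorted from salivary glands of mice 20 days old. Of the 4 libraries of 3′ single-cell RNA-seq, 2 came from C56BL/6 (spelled as labelled) Csf2+/- mice (1 female, 1 male library) and 2 from Csf2-/- mice (1 female, 1 male library), and each library was a pool of 2 mice. GM-CSF, the cytokine made from Csf2, drives the growth and maturation of myeloid cells, and the study's title names group 2 innate lymphoid cells (ILC2) as its source. The control mice carried 1 functional Csf2 allele, so no library here represents the wild type. Values are given in the order Csf2+/- female, Csf2+/- male, Csf2-/- female, Csf2-/- male.

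Matrix metalloproteinases are zinc-dependent enzymes made as inactive precursors, and they cut collagens, elastin, fibronectin and many secreted or membrane proteins. Mmp12, the macrophage elastase, is made mainly by macrophages, whereas Mmp8 and Mmp9 are stored in granules of neutrophils. Timp2 binds and blocks the active enzymes and also takes part, together with Mmp14, in the activation of other family members, and Adam8 is a protease of the leukocyte surface that releases the outer parts of membrane proteins.

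Mmp12, Mmp13 and Mmp8 lie in a cluster of metalloproteinase genes on mouse chromosome 9. Their promoters are shown because Mmp12 and Mmp13 were both high in the same group of macrophages while Mmp8 was not. Each line gives the 250 bases before a transcription start from RefSeq (build GRCm38.p6, plus strand, chr9:7347124-7347373 for Mmp12, chr9:7272264-7272513 for Mmp13 and chr9:7558179-7558428 for Mmp8). Capitals mark matches to TGANTCA, the letters bound by AP-1, searched on both strands. Mmp12 has another annotated start, whose window held no match and is not shown.

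Mmp12: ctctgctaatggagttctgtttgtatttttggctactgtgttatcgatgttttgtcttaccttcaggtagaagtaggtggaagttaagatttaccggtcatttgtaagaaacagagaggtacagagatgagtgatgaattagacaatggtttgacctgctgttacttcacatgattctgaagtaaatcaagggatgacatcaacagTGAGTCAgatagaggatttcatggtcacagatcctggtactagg

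Mmp13: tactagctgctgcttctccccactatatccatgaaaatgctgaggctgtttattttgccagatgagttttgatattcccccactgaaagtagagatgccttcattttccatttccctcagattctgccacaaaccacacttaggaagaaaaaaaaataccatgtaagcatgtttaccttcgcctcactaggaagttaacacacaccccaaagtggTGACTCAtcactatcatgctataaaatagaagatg

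Mmp8: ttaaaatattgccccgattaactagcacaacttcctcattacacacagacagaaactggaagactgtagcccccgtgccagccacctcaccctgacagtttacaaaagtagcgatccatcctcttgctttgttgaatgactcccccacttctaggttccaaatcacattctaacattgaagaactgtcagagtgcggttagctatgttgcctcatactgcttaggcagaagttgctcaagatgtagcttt

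The match began 44 bases before the start in Mmp12 and 35 bases before it in Mmp13. RefSeq windows were found for 6 of the 8 genes, 7 windows in all, because Mmp12 has 2 annotated starts. The other 5 windows (the other Mmp12 start, Mmp8, Mmp14, Timp2 and Adam8) held no match, and TTCNNNGAA, the letters bound by STAT factors, occurred in none of the 7. Among 32851 promoter windows of the same length, 6.75% held TGANTCA and 7.02% held TTCNNNGAA. A match is a string of letters and not evidence that a factor binds there.

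The deposited barcodes held 111981802 to 122366588 UMIs per library (unique molecular identifiers, 1 per captured transcript). After filtering, 34674 cells remained (8797, 8097, 8965 and 8815), with median depths of 10496, 10089, 8757 and 8803 UMIs per cell, deeper in the Csf2+/- libraries. Libraries shared 20 to 38 cell barcodes per pair. Csf2 was read at 1842 and 1843 UMIs in the Csf2+/- libraries and at 90 and 115 in the Csf2-/- libraries, which matches the genotype labels, although the deleted part of the gene is not stated in the sources used here. The files hold no cell annotation. Cells were clustered and named from marker genes, so a name such as macrophage-like is a rebuilt one, and 1938 cells stayed unnamed. A cluster of 790 cells led by Retnla, a secreted product of alternatively activated macrophages, and by Fn1, fibronectin, is called the Retnla-high Fn1-high cluster. It carried Ccr2, Csf1r and C1qa at 916 to 1226, 313 to 353 and 382 to 757 CPM (counts scaled to the cell type's total in a library, as below) and little Flt3 or Ly6c2, and it was not given a cell type name. It held 294, 358, 75 and 63 cells, against 1147, 1295, 1612 and 1774 macrophage-like cells. All 8 genes were among the variable genes used for clustering, so their levels by cell type are described without a test.

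Each gene had its own place among the cells. Mmp12 and Mmp13 were highest in macrophage-like cells and, for Mmp12, in the Retnla-high Fn1-high cluster. Mmp9 and Mmp8 were highest in neutrophil-like cells, Mmp14, Mmp19 and Timp2 in the stromal-like cells that passed the sort, and Adam8 in granulocytes and migratory dendritic cells. UMIs of a gene were summed over the cells of a type in a library and scaled to that type's total to give CPM, on which levels are compared between cell types within 1 gene and never between genes.

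**Figure D1:**
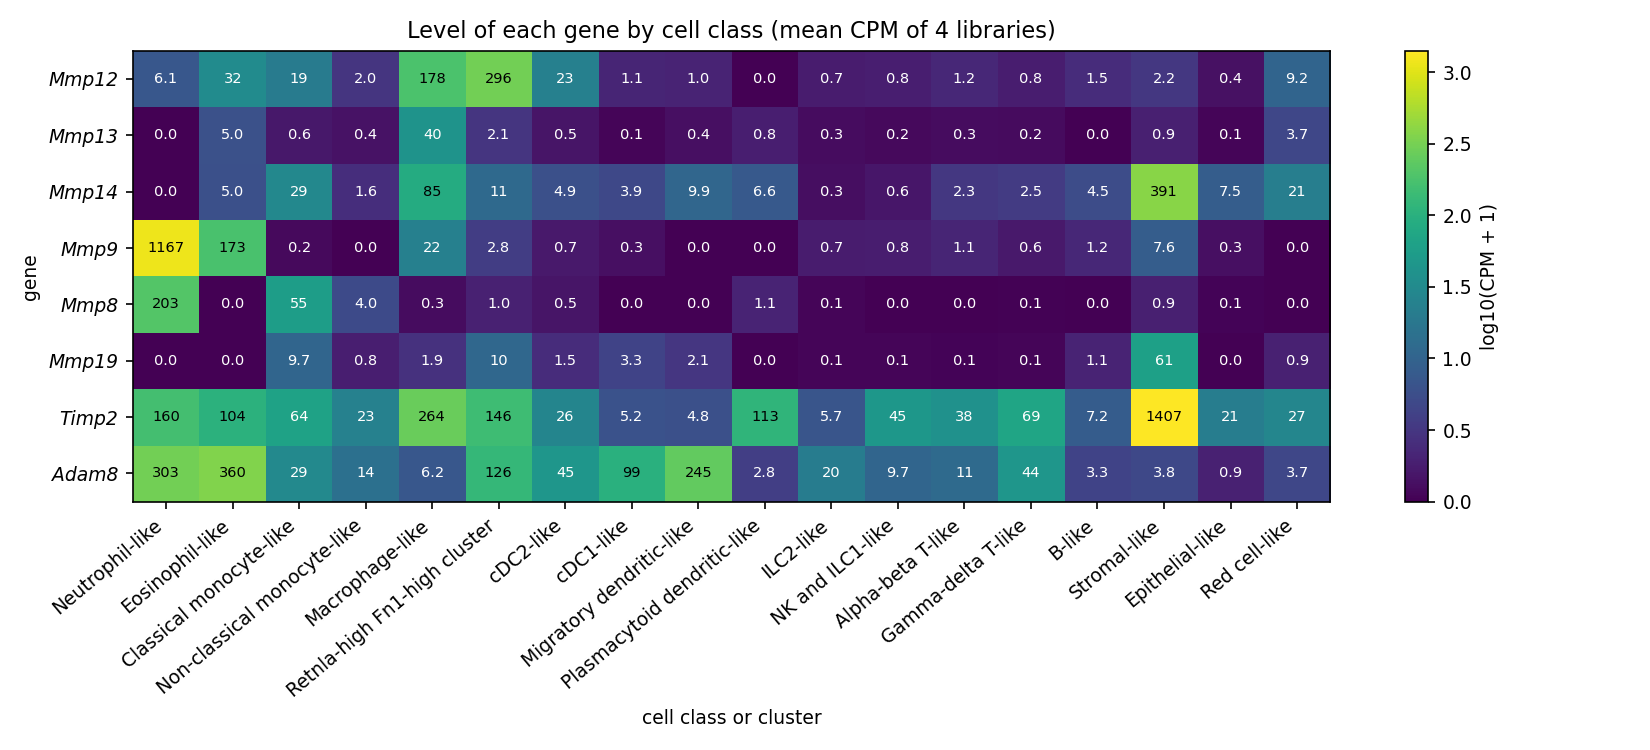
Level of each of the 8 genes (rows) in each cell type (columns), as the mean CPM over 4 libraries, printed in each box and coloured by log10(CPM + 1). Each gene has 1 or a few high cell types; values in rare types such as eosinophil-like cells rest on few UMIs (10 of Mmp12 in all).

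Mmp12 was lower in the Retnla-high Fn1-high cells of Csf2-/- glands. It stood at 510 and 462 CPM in the Csf2+/- libraries (2745 and 2875 UMIs) and at 73.5 and 139 CPM in the Csf2-/- libraries (97 and 133 UMIs). Both Csf2+/- values lay far above both Csf2-/- values, with means of 486 ± 33.9 and 106 ± 46.0 CPM (SD, n = 2 libraries each). The change was −2.21 ± 0.25 (SE) on the log2 scale, a 4.63-fold fall, with an adjusted p of 0.0157 in edgeR's quasi-likelihood test with Benjamini-Hochberg adjustment over 9842 genes. In that cluster 1.93% of all genes tested passed the threshold of 0.05, and 1.14% did so downward. Of the 8 genes 6 could be tested there, and Mmp12 alone passed.

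The call was lost in 6 of 13 alternatives, and the reasons for the loss were not tested. Without the Csf2-/- female library the change was −1.81, and without the Csf2-/- male library it was −2.70. Leaving out the first Csf2+/- library gave −2.11 with an adjusted p of 0.203, leaving out the other gave −2.29 with 0.222, and with sex as a block it was −2.23 with 0.0676. It was also lost when the cells were clustered without the 8 genes (−2.26, adjusted p 0.0589) or clustered more coarsely (−2.53, 0.155). With at least 1000 UMIs per cell it was −1.59 with 0.162, where the cluster held 36 and 24 Csf2-/- cells in place of 75 and 63, below the minimum of 50 cells per library used elsewhere. The direction was downward in each of the 13. In the same cells Retnla itself stood at 10724.5, 8557, 4873 and 3919 CPM and Fn1 at 2360, 2907, 1444 and 1312 CPM, so the cells that take this name in the Csf2-/- libraries were lower in both genes that name it. Jun was higher (1072, 955, 1544 and 1536 CPM, adjusted p 0.0107) and mt-Nd3 lower (−0.98), among 2 of 16 dissociation-stress genes called higher and 2 of 13 mitochondrial genes called lower. The summed dissociation-stress genes stood at 17565, 16434, 20084 and 18908 CPM and the mitochondrial genes at 21430, 26523, 17251 and 18836 CPM. Their part in the Mmp12 result was not tested.

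Both the share of cells with the transcript and the amount in those cells were lower in the Csf2-/- libraries. Of the Retnla-high Fn1-high cells, 41.8%, 45.3%, 32.0% and 23.8% held at least 1 Mmp12 UMI, with exact binomial 95% intervals of 36.1 to 47.7, 40.01 to 50.57, 21.7 to 43.8 and 14.0 to 36.2% that cover counting error only. After each cell was thinned to 3000 UMIs (7, 5, 2 and 0 shallower cells left out), the shares were 30.3%, 32.0%, 16.4% and 14.3%. The 2 genotypes did not overlap and differed by −15.8 percentage points (Csf2-/- minus Csf2+/-), with an exact two-sided permutation p of 0.333, which is the smallest that 2 against 2 libraries allow. Cells with the transcript held a median of 11, 8.5, 3 and 4 Mmp12 UMIs, and the richest single cell of each library held 159, 151, 15 and 21. In B-like cells, which should lack the gene, 0.797%, 0.685%, 0.602% and 0% of cells held a UMI, at median depths of 4614 to 5213 UMIs, against 15519 to 17553.5 UMIs in the cluster. In the deeper NK and ILC1-like cells (medians of 9085.5 to 11540.5 UMIs) the share was 0.573 to 1.62%, so the shares in the cluster lay above both. Without the 5% of cells of each library that held most Mmp12, an alternative chosen after seeing the data, the levels were 273, 268, 43.9 and 81.9 CPM and the change was −2.13 with an adjusted p of 0.00129.

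**Figure D2:**
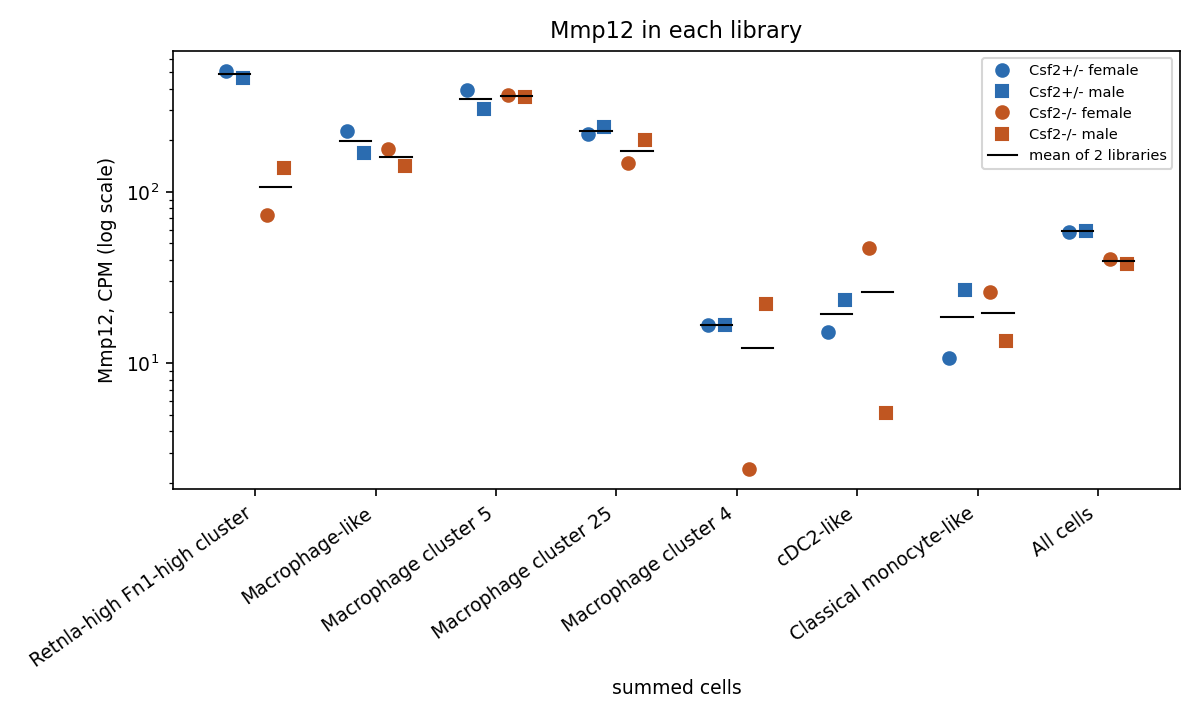
Mmp12 in CPM on a logarithmic axis in 8 groups of summed cells, with a symbol for each library (circles female, squares male, blue Csf2+/-, orange Csf2-/-) and a line at the mean of 2 libraries. In the cluster both Csf2+/- libraries lie far above both Csf2-/- libraries (510 and 462 against 73.5 and 139 CPM), while in macrophage-like cells the libraries span 141 to 226 CPM.

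In macrophage-like cells no comparable difference was called. Mmp12 stood at 226, 168, 177 and 141 CPM (3072, 2509, 3320 and 3439 UMIs), and the genotypes overlapped. The change was −0.36 ± 0.21 (SE) on the log2 scale with an adjusted p of 0.505 over 12885 genes. With sex as a block the same change had an adjusted p of 0.0129, in a fit that called 459 genes higher and 537 lower of 12885. Without the 5% of cells of each library that held most Mmp12, the levels were 63.9, 45.6, 40.02 and 23.0 CPM, which did not overlap, and the change was −0.85 with an adjusted p of 0.383. The share of macrophage-like cells with an Mmp12 UMI was 21.6%, 19.3%, 18.1% and 14.99%, and 13.2%, 12.1%, 11.6% and 10.1% after thinning. The thinned shares did not overlap and differed by −1.77 percentage points, with an exact two-sided permutation p of 0.333. Without the block, edgeR's quasi-likelihood test called 0% of genes in these cells, although 13.2% had an unadjusted p under 0.05 and DESeq2 called 110 higher and 40 lower. The change in the Retnla-high Fn1-high cluster minus that in macrophage-like cells was −1.99 ± 0.47 (SE) on the log2 scale, with an unadjusted p of 0.0177 and an adjusted p of 0.275. That difference did not pass, and 0.598% of genes passed in the same comparison, which was added after seeing the data.

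Macrophage-like cells were themselves of several kinds, and Mmp12 belonged to some of them. Cluster 5 (2079 cells, led by Il1a, C1qa and Creb5) held Mmp12 at 391, 306, 366 and 356 CPM, and the 4 libraries overlapped. Its change was 0.00 ± 0.12 (SE, log2) with an adjusted p of 0.995, where 1.1% of genes were called. Cluster 4 (2124 cells, led by Pf4, F13a1, Mrc1 and Folr2, genes of perivascular and interstitial macrophages) held it at 16.7, 16.7, 2.40 and 22.0 CPM, many times less. In cluster 25, also led by Il1a, it stood at 217, 239, 146 and 201 CPM, with both Csf2-/- libraries below both Csf2+/- libraries. The change there was −0.39 ± 0.15 (SE, log2) with an adjusted p of 0.998, where 0.0335% of genes were called. Cluster 5 made up 43.8%, 36.4%, 40.4% and 25.6% of macrophage-like cells, lowest in the Csf2-/- male library, which is also where the macrophage-like level was lowest. The Csf2+/- male and Csf2-/- female libraries had macrophage-like levels of 168 and 177 CPM. The part of this share in the macrophage-like level was not tested. Clusters 4 and 5 were singled out after their values were seen. Red-cell transcripts, 589 CPM in the Csf2-/- female macrophage-like cells and 1368 CPM in its cluster 5, were at most 2.05 CPM in the other libraries, and their part was not tested.

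**Figure D3:**
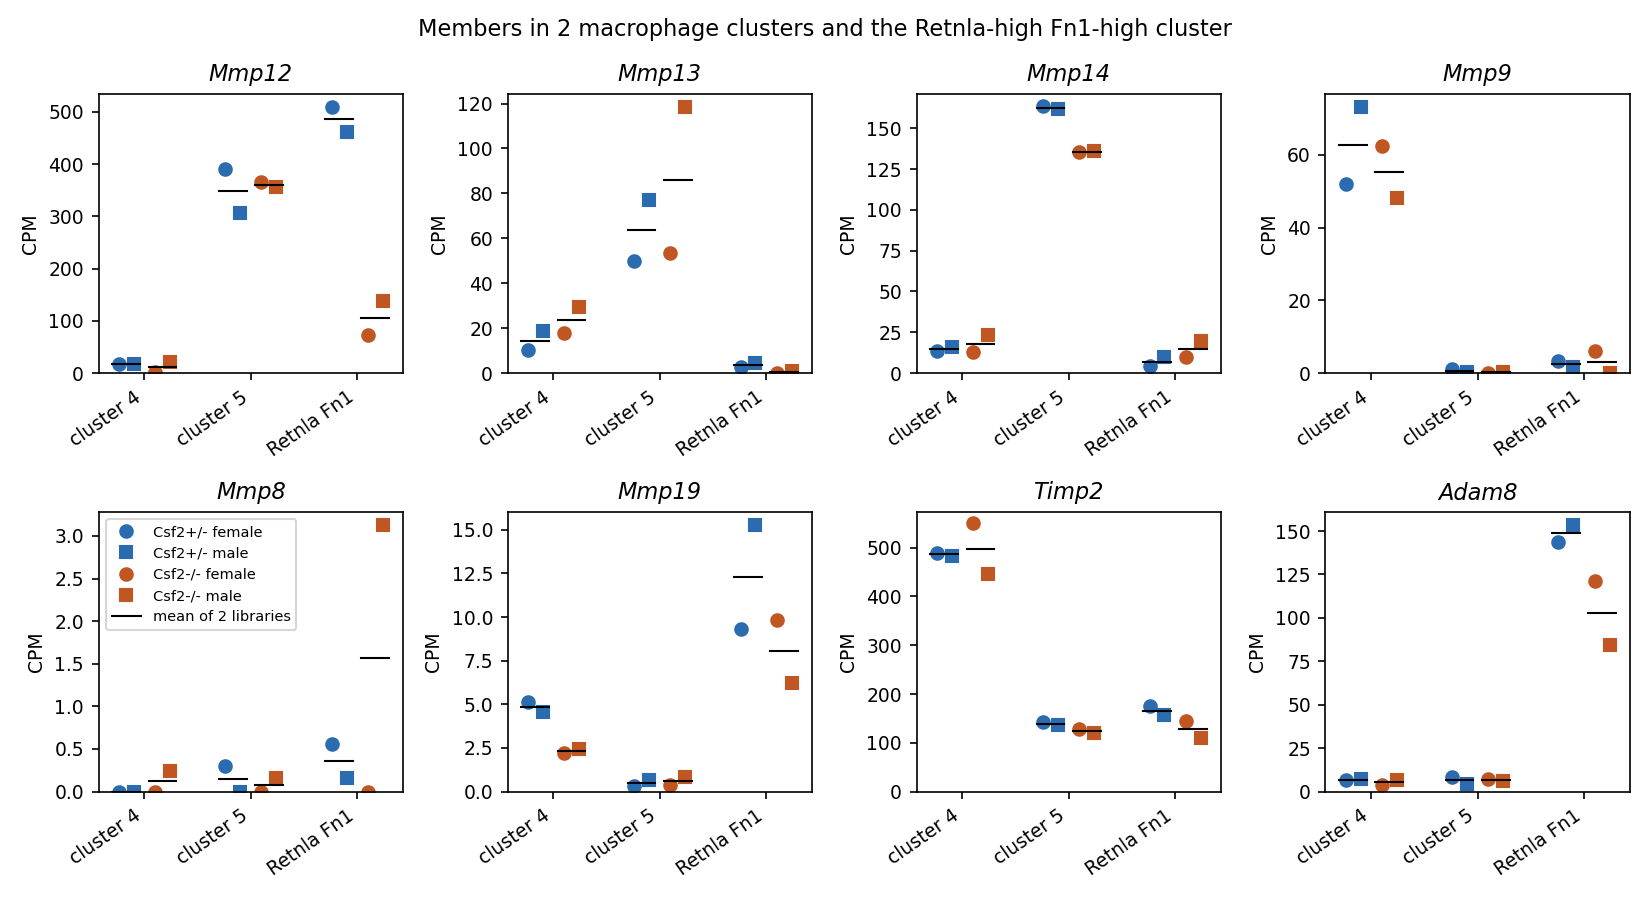
CPM of the 8 genes, each on its own linear axis from 0, in macrophage clusters 4 and 5 and the Retnla-high Fn1-high cluster, with a symbol for each library and a line at the mean of 2. In every library Mmp12, Mmp13 and Mmp14 stand higher in cluster 5 than in cluster 4, and Mmp9 and Timp2 higher in cluster 4; Adam8 stands highest in the Retnla-high Fn1-high cluster.

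The cells that supplied Mmp12 also differed between the genotypes, and there were fewer Retnla-high Fn1-high cells in the Csf2-/- libraries. The cluster supplied 44.9% and 49.9% of all Mmp12 UMIs in the Csf2+/- libraries and 2.52% and 3.56% in the Csf2-/- libraries. Macrophage cluster 5 supplied 43.2%, 31.5%, 76.3% and 59.2%, and the remaining macrophage-like cells 7.04%, 12.1%, 9.92% and 32.9%. Over all cells Mmp12 stood at 58.4, 59.2, 40.5 and 38.1 CPM (6109, 5756, 3851 and 3733 UMIs), with both Csf2-/- libraries below both Csf2+/- libraries. The change of −0.57 ± 0.08 (SE, log2) had an unadjusted p of 0.000604 and an adjusted p of 0.199 in edgeR, and an adjusted p of 4.04e-06 in DESeq2. Over all cells edgeR called 0.0124% of genes, and DESeq2 called 120 higher and 226 lower of 13852. In such sums over a library, fewer cells of a type and less RNA per cell cannot be told apart. Elsewhere Mmp12 was low: cDC2-like cells, a type of conventional dendritic cell, gave 126, 155, 279 and 40 UMIs, and 248 of the 279 in the Csf2-/- female library sat in 1 cell.

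**Figure D4:**
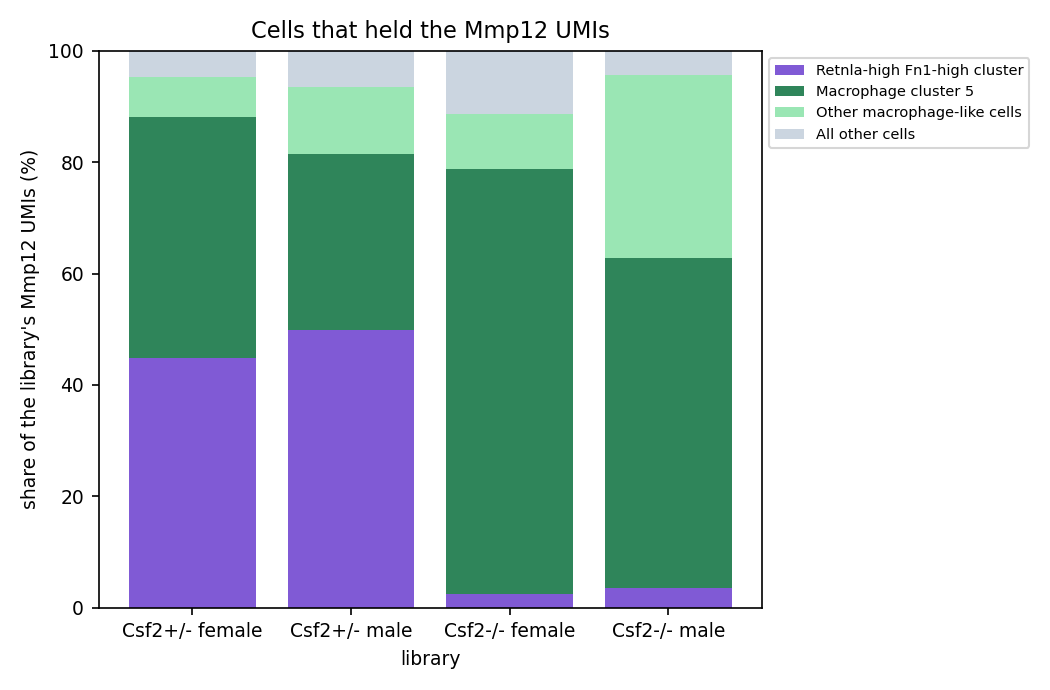
Share of each library's Mmp12 UMIs that came from the Retnla-high Fn1-high cluster, from macrophage cluster 5, from the other macrophage-like cells and from all other cells, in percent. The cluster supplies 44.9% and 49.9% in the Csf2+/- libraries and 2.52% and 3.56% in the Csf2-/- libraries.

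The collagenases Mmp13 and Mmp8 cut fibrillar collagen and were read in different cells. Mmp13 in macrophage cluster 5 stood at 49.9, 77.3, 53.3 and 118.5 CPM (337, 458, 428 and 736 UMIs), higher in each male library than in either female library, with the genotypes overlapping. Its change was 0.37 ± 0.60 (SE, log2) with an adjusted p of 0.899. Between 13.7% and 19.6% of cluster 5 cells held a Mmp13 UMI, and no B-like cell did. In macrophage-like cells overall it stood at 33.2, 44.9, 31.9 and 51.7 CPM (adjusted p 0.957). In the Retnla-high Fn1-high cluster only 14, 29, 0 and 1 UMIs were read, too few for a test within the cluster. Both Csf2-/- libraries lay below both Csf2+/- libraries there. The change in the cluster minus that in macrophage-like cells was −3.11 ± 0.95 (SE, log2). It had an unadjusted p of 0.00695 and an adjusted p of 0.189 in edgeR, where 0.598% of genes passed. Macrophages with Mmp12 also held more Mmp13: within macrophage-like cells it was 68.3, 101, 67.2 and 160 CPM in cells with an Mmp12 UMI and 20.3, 28.3, 21.7 and 27.9 CPM in cells without, higher in 4 of 4 libraries. The cells with Mmp12 were also deeper (medians of 12874 to 14722.5 against 10068 to 11547 UMIs). Within cluster 5 alone and after thinning, Mmp13 was found in 10.8%, 18.1%, 15.1% and 16.2% of cells with Mmp12 and in 4.87%, 6.63%, 5.68% and 10.4% of cells without. Mmp8 was read in neutrophil-like cells at 248, 290, 135 and 137 CPM, from 37, 31, 25 and 10 UMIs, and these cells (33, 28, 44 and 20) were too few to test. In classical monocyte-like cells Mmp8 stood at 40.9, 83.8, 43.5 and 51.6 CPM, with a change of −0.36 ± 0.34 (SE, log2; adjusted p 0.76, where 0.266% of genes were called).

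The gelatinase Mmp9 cuts denatured collagen and basement membrane collagen. It stood at 1301, 1470, 964 and 932 CPM in neutrophil-like cells, from 194, 157, 178 and 68 UMIs. Both Csf2-/- values were lower, but these cells were not tested. Mmp9 was itself in the marker list that named these cells, so its high level there is partly built in. In eosinophil-like cells it was 216, 145, 114 and 215 CPM (adjusted p 0.966, where 0.102% of genes were called). Among macrophages Mmp9 had the opposite place to Mmp12. It stood at 52.1, 73.2, 62.5 and 48.1 CPM in cluster 4 (adjusted p 0.691, where 0.0642% of genes were called) and at no more than 1.04 CPM in cluster 5. Between 15.5% and 19.4% of cluster 4 cells held a Mmp9 UMI. The 2 clusters were drawn with these genes among others, so the contrast is a description.

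Mmp14, a membrane-anchored collagenase, was highest in stromal-like cells at 400, 436, 383 and 345 CPM. Among macrophages it followed Mmp12 and not Mmp9: 163, 162, 136 and 136 CPM in cluster 5 and 13.8, 15.75, 13.03 and 23.1 CPM in cluster 4. In cluster 5 both Csf2-/- libraries lay below both Csf2+/- libraries, with a change of −0.30 ± 0.08 (SE, log2), an unadjusted p of 0.00252 and an adjusted p of 0.111. In macrophage-like cells it was 105, 92.1, 80.9 and 61.0 CPM, again without overlap, with a change of −0.52 ± 0.18 and an adjusted p of 0.337. That value passed with sex as a block (adjusted p 0.00442), where 459 genes were called higher and 537 lower of 12885, against 0 without the block. Without the Csf2-/- female library the change was −0.80. In cDC2-like cells the direction was the other way, 2.30, 3.77, 4.23 and 9.44 CPM, with 1.23 ± 0.39 and an adjusted p of 0.121, from 19 to 74 UMIs. That value also passed when sex was a block (1.14, adjusted p 0.00652) and in the fit with no low-count filter (1.22, 0.00182). These fits called 492 genes higher and 562 lower of 10961, and 387 and 493 of 16600. The main test called 232 and 285 of 10961. Without the Csf2-/- female library the change was 1.64. The difference between the change in cDC2-like and in macrophage-like cells was 1.8 ± 0.65 (SE, log2) with an adjusted p of 0.356, where 0.406% of genes passed. In the Retnla-high Fn1-high cluster the values of 4.09, 9.64, 9.85 and 19.8 CPM rested on 13 to 60 UMIs (1.05 ± 0.49, adjusted p 0.337). Without the Csf2-/- female library the change there was 1.51. It passed when the cells were clustered more coarsely (0.87, adjusted p 0.0069), where 752 genes were called higher and 1114 lower of 11692. That coarser unit held 2721 cells, dendritic cells among them. Mmp19, a secreted metalloproteinase, was sparse. It reached 85.4, 71.9, 38.3 and 48.7 CPM in stromal-like cells from 25, 17, 7 and 14 UMIs, and 9.29, 15.3, 9.85 and 6.25 CPM in the Retnla-high Fn1-high cluster (adjusted p 0.558). In the coarser unit Mmp19 passed (−1.41, adjusted p 0.0206).

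UMIs of the inhibitor Timp2 were read in every cell type. Stromal-like cells held 1824, 1303, 1735 and 766 CPM. Cluster 4 held 488, 484, 551 and 446 CPM, and cluster 5 held 142, 135, 129 and 120 CPM, so the inhibitor was higher in the macrophage cluster with Mmp9 than in the macrophage cluster with more Mmp12. In cluster 4 after thinning, Timp2 was found in 77.8%, 82.5%, 90.4% and 82.9% of cells with Mmp9 and in 66.9%, 70.6%, 74.4% and 66.2% of cells without. In the Retnla-high Fn1-high cluster it was found in 44.8%, 37.2%, 66.7% and 33.3% of cells with Mmp12 (87, 113, 12 and 9 cells). In cells of that cluster without Mmp12 the shares were 34%, 37.1%, 31.1% and 18.5%. In macrophage-like cells overall Timp2 was 253, 270, 262 and 270 CPM, with a change of −0.03 ± 0.08 (SE, log2; adjusted p 0.902). In the Retnla-high Fn1-high cluster it was 175, 156, 145 and 109 CPM, lower in both Csf2-/- libraries, with a change of −0.34 ± 0.15 and an adjusted p of 0.295. It passed without a low-count filter (−0.40, adjusted p 0.0494) and when the cells were clustered more coarsely (−1.03, 0.000302). The coarser unit held 2721 cells in place of 790 and included dendritic cells, whose part in that change was not tested. Without the Csf2-/- female library the change in the cluster was −0.59. Classical monocyte-like cells went the other way at 59.0, 50.5, 72.6 and 73.1 CPM, with 0.43 ± 0.13 and an adjusted p of 0.258. The difference between the changes in these 2 cell types was 0.78 ± 0.18 (SE, log2), with an unadjusted p of 0.000607 and an adjusted p of 0.0609 that did not pass, where 0.789% of genes passed.

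Adam8, the membrane protease, was lower in cDC2-like cells of Csf2-/- glands. These cells held 58.7, 55.1, 28.8 and 36.2 CPM (485, 365, 170 and 284 UMIs), and the Csf2+/- and Csf2-/- libraries did not overlap. Their means were 56.9 ± 2.60 and 32.5 ± 5.27 CPM (SD, n = 2 libraries each). The change was −0.80 ± 0.12 (SE) on the log2 scale, a 1.74-fold fall, with an adjusted p of 0.000991 over 10961 genes in edgeR's quasi-likelihood test. In these cells 4.72% of all genes passed and 2.6% did so downward. The call held in 11 of 11 alternatives, with adjusted p-values up to 0.0116. The share of cells with an Adam8 UMI was 48.8%, 41.6%, 29.0% and 31.2%, and 14.5%, 14.8%, 8.77% and 9.09% after thinning, against 0.685 to 2.97% unthinned in B-like cells. Also in cDC2-like cells, 5 of 13 mitochondrial genes were called lower, and the summed epithelial genes stood at 359, 436, 675 and 238 CPM. Of 9 neutrophil genes 2 could be tested (S100a8 and S100a9, at most 4.74 CPM), and both were called higher. Their part in the Adam8 result was not tested.

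**Figure D5:**
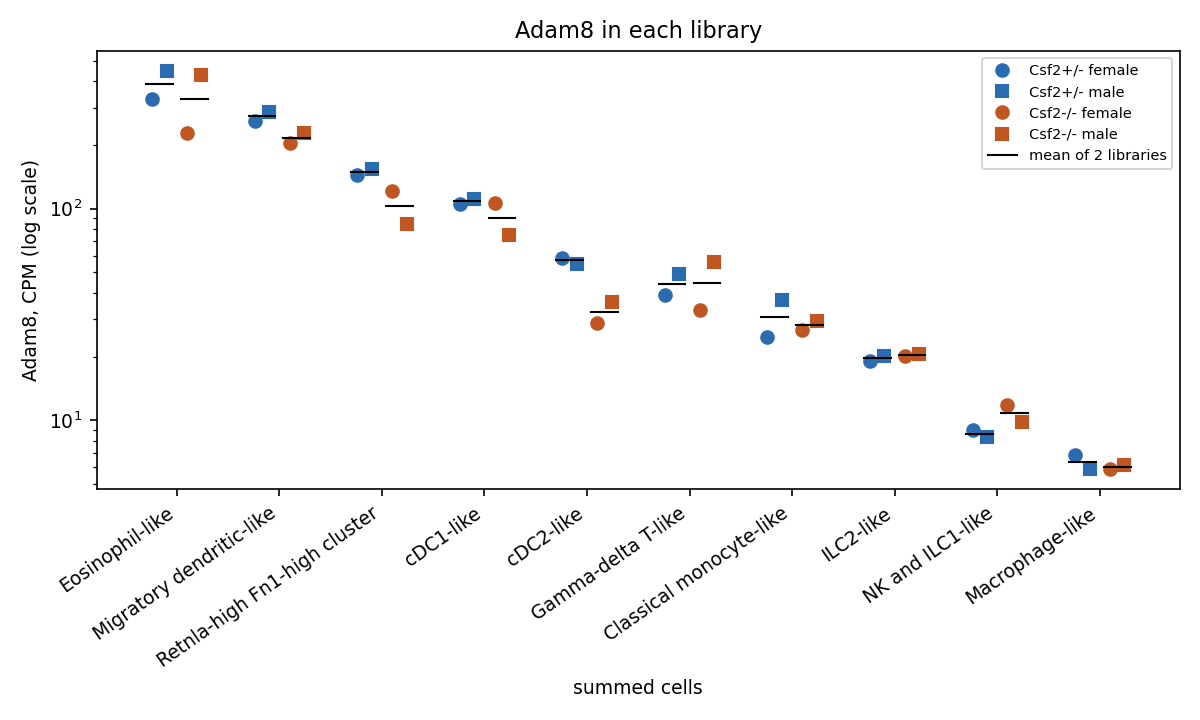
Adam8 in CPM on a logarithmic axis in 10 cell types or clusters, with a symbol for each library and a line at the mean of 2 libraries. In cDC2-like cells the Csf2+/- libraries (58.7 and 55.1 CPM) lie above the Csf2-/- libraries (28.8 and 36.2 CPM).

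In the other cell types with Adam8 no change was called in the main test. Migratory dendritic-like cells gave 260, 288, 205 and 227 CPM (−0.36 ± 0.13, SE, log2; adjusted p 0.348, where 0.365% of genes were called). The Retnla-high Fn1-high cluster gave 144, 154, 121 and 84.4 CPM (−0.49 ± 0.15; adjusted p 0.139). In both, the genotypes did not overlap, and without the Csf2-/- female library the change in the cluster was −0.81. The cluster's change passed without a low-count filter (−0.54, adjusted p 0.0027), where 243 genes were called higher and 456 lower of 15599. It also passed when the cells were clustered more coarsely (−1.12, 2.52e-05), where 752 and 1114 of 11692 were called. That coarser unit held 2721 cells, dendritic cells among them. cDC1-like cells, the cross-presenting dendritic cells, gave 104.8, 111.6, 106 and 75.0 CPM (adjusted p 0.518, where 1.07% of genes were called). Without the Csf2-/- female library the change there went from −0.29 to −0.60. Eosinophil-like cells held most, 331, 449, 229 and 431 CPM, with the genotypes overlapping (adjusted p 0.942). Macrophage-like cells held only 5.88 to 6.85 CPM. Over all cells Adam8 was 31.0, 32.5, 18.9 and 21.0 CPM, a change of −0.66 ± 0.07 (SE, log2) with an unadjusted p of 0.000177 and an adjusted p of 0.17, or 0.0468 with sex as a block. The fit with the block called 15 genes higher and 18 lower of 16163, against 0 and 2 without it. In all, 52 pairs of gene and cell type could be tested, and the 2 that passed, Mmp12 in the Retnla-high Fn1-high cluster and Adam8 in cDC2-like cells, were both lower in Csf2-/- libraries. In the cell types tested but not yet named, the share of all genes called was 0.484% in alpha-beta T-like, 0.178% in B-like, 0% in epithelial-like, 0.148% in gamma-delta T-like, 0.208% in ILC2-like, 0.0463% in NK and ILC1-like and 0.468% in non-classical monocyte-like cells.

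Other genes of matrix turnover were read from lists of proteases, inhibitors, activators and substrates. In the Retnla-high Fn1-high cluster 0 of 17 other metalloproteinases and 1 of 8 other inhibitors had enough counts to test. Of the ADAM and ADAMTS proteases 8 of 18 were tested there and 0 passed in edgeR, with 1 at an unadjusted p under 0.05, 0 by DESeq2, and a median change of −0.09 against 0.0072 over all genes. Of 16 matrix and collagen uptake genes 5 were tested and 1 passed, Fn1 (−0.91, adjusted p 0.00221), a gene that also names the cluster. Fn1 fell in other cells as well, from 51.6 and 41.9 to 5.41 and 8.24 CPM in macrophage cluster 4 (adjusted p 0.00129) and from 42.9 and 42.0 to 1.18 and 5.81 CPM in B-like cells (adjusted p 1.8e-05), types where it was low. Mmp12 in B-like cells was 1.41, 3.50, 1.18 and 0 CPM, from 6 UMIs in all. Of the ADAM and ADAMTS proteases in cDC2-like cells 9 were tested, and 1 rose and 1 fell, with a median of −0.15 against 0.0045 over all genes. There Adam15, a relative of Adam8, fell from 59.7 and 71.1 to 38.3 and 46.8 CPM (adjusted p 0.00685). Furin, which activates Mmp14 and many ADAM proteases by cutting their precursors, fell there from 117 and 109 to 87.7 and 71.4 CPM (adjusted p 0.0158), and Adamts6 rose from 26.6 and 29.6 to 48.7 and 48.9 CPM (adjusted p 0.000862). Plaur, the urokinase receptor, Cd44, a surface anchor for Mmp9 and Mmp14, and Mfge8 also fell in cDC2-like cells, by 0.40, 0.38 and 1.01 on the log2 scale (adjusted p 0.0271, 0.00615 and 0.00491). Cd44 fell also in cDC1-like cells (−0.47, adjusted p 0.0351) and B-like cells (−0.63, adjusted p 0.0457). In migratory dendritic-like cells Adam23, an ADAM without protease activity, fell from 351 and 296 to 107 and 108 CPM (adjusted p 0.00054). In macrophage cluster 5 Rhbdf2, which controls the sheddase Adam17, fell from 38.8 and 46.4 to 30.7 and 26.7 CPM (adjusted p 0.0469). Thbs1, thrombospondin, fell in classical monocyte-like cells from 336 and 406 to 243 and 246 CPM (adjusted p 0.0488). In alpha-beta T-like cells Cd63, Ctss, Ctsh and Cst3 rose by 1.17, 0.89, 0.98 and 0.55 on the log2 scale (adjusted p from 0.00315 to 0.0341). With doublets kept, 7 genes of these cells were called higher, against 37 in the main test. Carry-over of transcripts from macrophage-like cells, more numerous in the Csf2-/- libraries (1612 and 1774 against 1147 and 1295), was not tested. Stress and mitochondrial genes moved in several of the cell types named above. In classical monocyte-like cells 15 of 16 dissociation-stress genes had higher values in the Csf2-/- libraries (2 called) and 11 of 13 mitochondrial genes lower values (1 called). In migratory dendritic-like cells these counts were 14 of 16 (1 called) and 10 of 13 (1 called), and in macrophage cluster 5 they were 11 of 16 (1 called) and 12 of 13 (2 called). In cDC1-like cells 12 of 13 mitochondrial genes had lower values (2 called), and in alpha-beta T-like cells 9 of 13 (1 called). Their part in the changes named here was not tested. In macrophage-like cells as a whole 11 of 18 ADAM and ADAMTS proteases were tested and 0 passed in edgeR, with 2 at an unadjusted p under 0.05 and 0 by DESeq2. The highest of that list there were Adam17, the main sheddase of tumour necrosis factor, at 207, 224, 185 and 178 CPM (−0.30, adjusted p 0.264), and Adam10 at 139, 148, 150 and 145 CPM (adjusted p 0.955).

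The genes whose levels most resembled each member's were found by Pearson's r of log2(CPM + 1) over 72 points (18 cell types and clusters in 4 libraries, points of 1 library sharing its depth). For Mmp12 these were Fcrls (0.83), C1qb (0.81), Mrc1 (0.79), C3ar1 (0.78) and Ccl2 (0.77). For Mmp13 they were Cd209f (0.75), Folr2 (0.74) and Pf4 (0.70), for Mmp14 Il11ra1 (0.85), Tceal8 (0.82) and Cxcl14 (0.81), and for Mmp19 Ahnak2 (0.85), Arsi (0.82) and Steap3 (0.80). Mmp9 went with Retnlg (0.90), Slc40a1 (0.82) and Slc27a4 (0.80), and Mmp8 with Slfn4 (0.93), Fpr1 (0.90) and Vnn3 (0.90). Retnlg, like Mmp9, was in the marker list of neutrophil-like cells. Timp2 went with Ctsd, Igf1 and Slc39a7 (each 0.72), and Adam8 with Rab11fip1 (0.85), Aqp9 (0.81) and Actg1 (0.80). Between members the highest were Mmp14 with Mmp19 (0.71) and Mmp12 with Mmp13 (0.50). Macrophage-like cells entered as 1 cell type per library, so these values do not separate the macrophage clusters. Pf4, Folr2 and Mrc1 were among the leading genes of macrophage cluster 4. There Mmp12 and Mmp13 were lower in every library than in the macrophage cluster led by Il1a, C1qa and Creb5.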

How the data were processed

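The deposited files are count matrices, 1 per library. The authors aligned and counted the reads with Cell Ranger 7.0.0 on GRCm39, per the submitters' processing notes, and the deposited values are whole-number UMI counts per gene and barcode. The library kit was Single Cell 3' v2, per the labels' protocols. Filters of at least 500 UMIs, at least 300 genes and no more than 10% mitochondrial UMIs left 37644 of 39395 barcodes.

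Doublets were scored per library with Scrublet in scanpy 1.11.5. Its automatic threshold marked 0, 0.0343, 0 and 12.9% of barcodes, so in each library the expected share (0.008 per 1000 barcodes) with the highest scores was removed, a rule chosen after seeing this and before any test. The remaining cells were clustered (3000 variable genes, 40 components, 15 neighbours, Leiden resolution 1.5 with leidenalg 0.10.2) into 45 clusters. Clusters were named from marker lists, with scoring details settled after seeing the clusters.

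UMIs were summed per library and cell type, and types with at least 50 cells in each library were tested, except that the Retnla-high Fn1-high cluster was kept below that minimum in the alternative with at least 1000 UMIs per cell. Genotypes were compared with edgeR 4.0.16 (R 4.3.3; TMM, low-count filter, quasi-likelihood test, robust, genotype as the only term), adjusted by Benjamini-Hochberg over all genes of a cell type, with a threshold of 0.05. DESeq2 1.42.0 and the other alternatives appear in the closing section. Genes named beside the 8 were the 5 most correlated with Mmp12 and the 3 most correlated with each other gene (among genes reaching 50 CPM), the 5 with the largest ratio between macrophages with and without Mmp12, and pathway genes past the threshold (at most 4 per list and cell type) or highest in level. The 8 genes and the lists were chosen with earlier results of these data known, and the comparisons between cell types, between macrophage clusters and without the richest cells were added after seeing the data. Replicates are 2 pools per genotype, and replicate numbers follow sex, so p-values measure the spread between these pools only.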

Additional observations from a re-analysis of the deposited data

How the results depend on the processing

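Replicate numbers were given in accession order and coincide with sex, so they share a sex and not an animal, and the paired analysis with sex as the replicate block is an alternative only. With this block Mmp12 was −2.23 in the Retnla-high Fn1-high cluster (no longer passing), −0.36 in macrophage-like cells (now passing, adjusted p 0.0129), and 4 calls instead of 1 were made among the other pairs of gene and cell type. Among all genes of macrophage-like cells the block called 459 higher and 537 lower of 12885, against 0 in the main test. It also brought Adam8 over all cells (adjusted p 0.0468) and Mmp13 in macrophage cluster 4 (0.71, adjusted p 0.0397) past the threshold. The fall of Mmp12 in the cluster also missed the threshold when the cells were clustered without the 8 genes (−2.26), at Leiden resolution 0.8 (−2.53, a unit of 2721 cells that also held dendritic cells) and with at least 1000 UMIs per cell (−1.59, from 36 and 24 Csf2-/- cells), and its adjusted p ranged from 6.86e-51 without a low-count filter to 0.222. Leaving out 1 library gave −2.70 to −1.81 there, −0.60 to −0.09 in macrophage-like cells and −0.66 to −0.49 over all cells. Over all cells DESeq2 gave −0.57, which passed. Adam8 in cDC2-like cells passed in 11 of 11 alternatives, from −0.96 to −0.67 with 1 library left out; at resolution 0.8 no cDC2-like unit was formed. The count of other calls was 4 at resolution 0.8 and 4 without a low-count filter, and 1 to 7 with 1 library left out, the highest without the Csf2-/- female library. Mmp12 in macrophage cluster 5, at 0.00, ranged from −0.18 to 0.21 with 1 library left out and was below 0 without the Csf2+/- male library (−0.18) and without the Csf2-/- female library (−0.06). The share of cells with Mmp12 differed by −2.53 to −1.02 points in macrophage-like cells and −16.9 to −14.7 points in the cluster with 1 library left out. The causes of these shifts were not tested. The Csf2-/- side of the cluster rests on 75 and 63 cells, and with 2 pools per genotype an exact permutation test of a share cannot fall below a p of 0.333.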

Other observations

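Macrophage-like cells with and without an Mmp12 UMI (248, 250, 291 and 266 cells with one) were also compared for other genes, as a description without a test. Dcstamp, a membrane protein needed for the fusion of macrophage-lineage cells, stood at 270, 253, 173 and 172 CPM in cells with Mmp12 and at 96.5, 70.0, 51.1 and 30.1 CPM in cells without, a mean log2 ratio of 1.88. Tnip3, an inhibitor of NF-kB signalling, had a mean log2 ratio of 1.54, Olfr111, an olfactory receptor gene, 1.49 and Dtx4, a ubiquitin ligase of the Notch pathway, 1.18. Each was higher in the cells with Mmp12 in 4 of 4 libraries. Mmp14 had a mean log2 ratio of 0.89, Timp2 of −1.04 and Mmp9 of −2.98. Within macrophage cluster 5 alone and after thinning, Mmp14 was found in 33.3%, 36.2%, 32.9% and 31.4% of cells with Mmp12 and in 35.6%, 34.3%, 29.6% and 31.0% of cells without, higher in 3 of 4 libraries. Timp2 was found there in 31.5%, 20%, 28.3% and 25.7% of cells with Mmp12 and in 30.3%, 35.1%, 31.2% and 28.4% of cells without, lower in 3 of 4 libraries. The share of cells with an Mmp12 UMI was 33.0 to 35.5% in macrophage cluster 5 and 0.963 to 4.17% in cluster 4, and the cells with one were deeper. The part of both in these ratios was not tested.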
